A study of Mus musculus with 12 samples.

Results

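The urea cycle enzymes and glutamine synthetase were followed in mouse livers with MYC-driven tumors and in liver tumor xenografts, with and without dietary tryptophan (Trp). The members are the rows of 7 genes in the count tables, chosen by gene symbol out of 24062 symbols: Nags, Cps1, Otc, Ass1, Asl and Arg1, which make up the cycle and its activator, and Glul, glutamine synthetase. RNA-seq libraries of 12 mice, 1 per mouse, fall into 4 groups of 3. MYC-ON livers come from male FVB mice with the transgenes LAP-tTA and TRE-MYC, in which the liver-enriched LAP promoter drives the activator of a human MYC gene. MYC is switched on when doxycycline is withdrawn at birth. Both liver groups carry MYC, and wild-type livers were not analysed here. For MYC-ON mice on the No-Trp diet the paper describes livers with smaller and fewer tumors and with less MYC expression. Tumor content, MYC level and diet therefore cannot be told apart in the liver libraries. The labels give an age of 45 days for MYC males used in a comparison with wild-type livers and no other age. The other 6 libraries are xenografts of HCC53N, a single line of mouse liver cancer cells with p53 knocked out and mutant NRAS overexpressed. They grew subcutaneously in immunodeficient females (labelled NOD-SKID), and the labels also name these cells MYC ON. In both models mice were given a control diet (labelled Complete diet) or a No-Trp diet for 21 days. Host and tumor are both mouse, so their reads cannot be separated, and model, strain, sex, site and driver differ together between livers and xenografts and cannot be told apart.

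The urea cycle turns ammonia, which is released when amino acids are broken down, into urea, and in mammals the full cycle runs in the hepatocytes around the portal vein. NAGS makes N-acetylglutamate, the activator that carbamoyl phosphate synthetase 1 (CPS1) needs to fix ammonia in the mitochondrion. Ornithine transcarbamylase (OTC) then makes citrulline, argininosuccinate synthetase (ASS1) and argininosuccinate lyase (ASL) turn it into arginine in the cytosol, and arginase 1 (ARG1) splits arginine into urea and ornithine. Glutamine synthetase binds ammonia that escapes the cycle, and in liver it is made by the hepatocytes next to the central vein.

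On GRCm38 with the GENCODE M21 annotation, Nags lies at chr11:102145513-102149477 on the plus strand, Cps1 at chr1:67123026-67231259 (plus), Otc at chrX:10252305-10321024 (plus), Ass1 at chr2:31470207-31520672 (plus), Asl at chr5:130011258-130029247 (minus), Arg1 at chr10:24915221-24927484 (minus) and Glul at chr1:153899944-153909723 (plus). All 7 are protein-coding genes, and the counts are over their exons. RefSeq promoter sequences were at hand for 4 of the 7 (Nags, Otc, Ass1 and Glul). They are shown for the enzyme that activates the cycle, for the X-linked enzyme of the mitochondrial step and for glutamine synthetase. Each spans 300 bases around the start that RefSeq annotates on GRCm38.p6. That start lies upstream of the GENCODE start for Glul and downstream of it for Ass1. Capitals mark CCAAT boxes (CCAAT) and GC boxes (GGGCGG) on either strand.
Nags, chr11:102145263-102145562, plus strand: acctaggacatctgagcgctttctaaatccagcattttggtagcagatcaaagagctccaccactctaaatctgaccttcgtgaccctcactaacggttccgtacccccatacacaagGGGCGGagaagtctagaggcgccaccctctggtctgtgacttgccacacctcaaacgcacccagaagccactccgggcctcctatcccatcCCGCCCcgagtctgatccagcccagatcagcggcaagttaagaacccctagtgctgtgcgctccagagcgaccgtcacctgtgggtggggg
Otc, chrX:10252055-10252354, plus strand: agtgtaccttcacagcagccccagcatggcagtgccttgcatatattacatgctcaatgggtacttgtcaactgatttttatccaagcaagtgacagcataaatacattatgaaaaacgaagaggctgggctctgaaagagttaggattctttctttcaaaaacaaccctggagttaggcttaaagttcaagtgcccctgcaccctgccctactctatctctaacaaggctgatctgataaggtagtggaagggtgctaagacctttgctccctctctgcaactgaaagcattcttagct
Glul, chr1:153899679-153899978, plus strand: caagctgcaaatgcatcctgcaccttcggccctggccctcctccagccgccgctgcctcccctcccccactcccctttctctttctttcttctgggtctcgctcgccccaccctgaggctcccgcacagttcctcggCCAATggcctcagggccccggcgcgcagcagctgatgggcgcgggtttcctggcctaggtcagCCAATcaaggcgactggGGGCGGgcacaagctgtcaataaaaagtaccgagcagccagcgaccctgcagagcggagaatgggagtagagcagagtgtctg

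The promoters differ in base composition. G and C make up 64.3% of the Glul window, 57.7% of the Nags window and 44.3% of the Otc window. Glul holds 2 CCAAT boxes and 1 GC box, Nags holds 2 GC boxes, and neither motif was found in Otc. CCAAT was found in 37.4% and GGGCGG in 35.7% of the 32851 promoter windows of the same length. The E-box CACGTG, the site bound by MYC and its partner MAX among other factors, was found in none of these 3 windows and once in the window of Ass1. It was present in 7.15% of all windows. The letters TTGCNNAA, TTACNNAA, CAAAGTCCA, TATAAA and TGACGTCA, searched on both strands, were found in none of the 4 windows. A match here is a description of the letters and not of binding.

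Reads counted on genes ranged from 14660963 to 26085349 per library. Of the reads, 24.7% to 39.4% were left out by the authors' counting. The precursor ribosomal RNA row Rn45s took 12.1% of counted reads in the liver of control mouse 101 and 2.22% in that of control mouse 102. Livers 101 and 108 and xenografts 41 and 43 carry a mark of resubmission, so the mark falls on 1 mouse of each liver diet but on 2 control xenografts and no No-Trp xenograft. Trp53 stood at 46.7 to 133 normalized CPM (reads of a gene scaled to a common library size) in the livers and at 17.5 to 22.8 in the xenografts. Levels are given as CPM after edgeR's TMM scaling over all 12 libraries, and diet fold changes come from fits within each model, so both can differ slightly. Nothing in the labels says whether mice of a group were littermates, so p-values measure the spread between these mice.

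On the No-Trp diet the RNA of 3 of the 6 members that could be tested rose in MYC-ON livers, namely the first enzyme of the cycle with its activator and the last enzyme. Arg1 rose 7.47-fold, Cps1 3.26-fold and Nags 2.13-fold. Asl was 1.93-fold higher and Otc 1.83-fold higher, and Glul was 1.59-fold higher, without passing both thresholds. A gene passed where its adjusted p did not exceed 0.05 and its log2 fold change was 1 or larger, up or down (edgeR quasi-likelihood test, Benjamini-Hochberg adjustment over all 14122 genes tested). In counts of lists below, a gene rose or fell with the diet only where it passed both thresholds. In this comparison 16.6% of all genes passed both, 9.28% upwards and 7.27% downwards. The median log2 fold change was 1.02 over the 6 members and -0.003 over all genes. The dispersion of the genes, and with it the calls, rested on 6 mice, and with 3 mice a group an exact permutation test of a single gene cannot go below p = 0.1.

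Arg1, which releases urea, showed the widest gap between diets. It measured 343, 584 and 269 CPM in the control livers of mice 101, 102 and 103, and 2223, 3709 and 2868 CPM in the No-Trp livers of mice 105, 107 and 108. The lowest No-Trp liver stood above the highest control liver, and the log2 fold change was 2.90 ± 0.39 (standard error, adjusted p = 0.0138). Cps1, which carries out the committed step, measured 1181, 2113 and 1750 CPM in the control livers and 4833, 6601 and 4783 CPM in the No-Trp livers, again without overlap. Its log2 fold change was 1.70 ± 0.34 (adjusted p = 0.0220). Nags, whose product switches CPS1 on, measured 45.4, 64.5 and 37.8 CPM in the control livers and 103, 109 and 98.7 CPM in the No-Trp livers. The No-Trp livers lay close together, and the log2 fold change was 1.09 ± 0.21 (adjusted p = 0.0202). Part of the Nags exons overlaps Gm11586, an antisense gene with no row in the counts, and 17.9% of its 100-base windows are shared with that gene.

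Asl, which splits argininosuccinate, passed on the adjusted p but not on the fold. With no condition on the fold, 13.3% of all genes were higher on the adjusted p. It measured 328, 347 and 248 CPM in the control livers and 573, 703 and 486 CPM in the No-Trp livers. The groups did not overlap, and the log2 fold change was 0.95 ± 0.23 (adjusted p = 0.0296). For 23.6% of all genes every No-Trp liver stood above every control liver, so the absence of overlap seen in Nags, Cps1, Asl and Arg1 was not rare in this comparison. Otc, which joins carbamoyl phosphate to ornithine, measured 111, 218 and 104 CPM on the control diet and 246, 378 and 156 CPM on the No-Trp diet. No-Trp mouse 108 lay below control mouse 102, and the log2 fold change of 0.87 ± 0.40 did not pass (adjusted p = 0.145). Glul measured 137, 334 and 164 CPM in the control livers and 300, 419 and 274 CPM in the No-Trp livers. Control mouse 102 again lay inside the No-Trp range, and the log2 fold change of 0.66 ± 0.36 did not pass (adjusted p = 0.202).

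**Figure D1:**
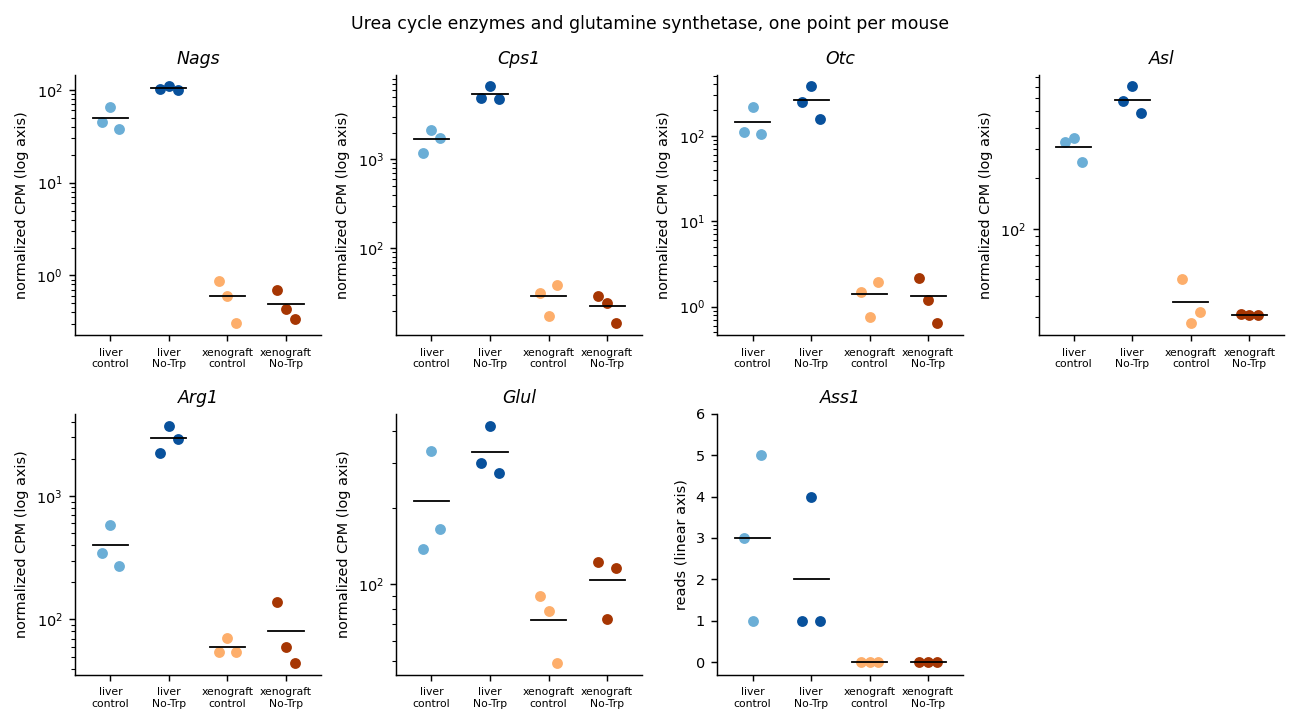
Normalized CPM (log axis) of 6 members, and reads (linear axis) of Ass1, in the 4 groups; each point is 1 mouse and each bar the mean of 3 mice. Arg1, Cps1, Nags and Asl do not overlap between the liver diets, control liver 102 is high for Otc and Glul, and all xenografts lie below all livers in the 6 CPM panels.

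Control liver 102 had the highest level of Nags, Cps1, Otc, Asl, Arg1 and Glul among the 3 control livers. It also stood apart in the summed level of 14 hepatocyte markers, at 47867 CPM against 13843 and 16433 CPM in the other 2 control livers. In the No-Trp livers that sum ranged from 64837 to 160746 CPM. Alb alone gave 4521 to 25587 CPM of the sum in the control livers and 30206 to 88144 CPM in the No-Trp livers. Of the 14 hepatocyte markers, 7 rose and none fell with the diet (median log2 fold change 1.80), with Tat, an enzyme of tyrosine breakdown, rising most (4.43 ± 1.06, adjusted p = 0.0298). The erythroid markers moved the opposite way, from 64.5 to 635 summed CPM in the control livers to 16.5 to 28.2 CPM in the No-Trp livers, and 5 of the 6 tested fell. Fewer cells of a type and less RNA per cell cannot be told apart in bulk tissue, and the part of the cell mixture in the members' change was not tested. Without control liver 102 all 6 tested members rose, whereas without control liver 101 or control liver 103 none passed both thresholds. Without No-Trp liver 105 only Arg1 passed. These fits hold 5 mice, and over all genes the number passing fell to 294 without control liver 101, 8 without control liver 103 and 368 without No-Trp liver 105. Over all fits that left out 1 liver it ranged from 8 to 3207, against 2338 with every liver, so the members' counts moved with those of all genes. The sign of the liver change was positive for all 6 tested members in each of these fits. With the resubmission mark as a covariate, Arg1 (2.91), Cps1 (1.73) and Nags (1.09) kept their log2 fold changes and passed.

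Ratios between members within a library do not depend on the scaling between libraries. There were 0.154 to 0.291 reads on Arg1 per read on Cps1 in the control livers and 0.460 to 0.600 in the No-Trp livers, so every No-Trp liver had more Arg1 per Cps1 than every control liver. Glul moved the other way against Cps1, from 0.0939 to 0.158 reads per read on Cps1 in the control livers to 0.0573 to 0.0635 in the No-Trp livers. Neither pair of ranges overlapped. The 6 enzymes of the cycle together took 0.181% to 0.318% of counted reads in the control livers and 0.694% to 0.788% in the No-Trp livers. Most of these were reads on Cps1, which took 0.106% to 0.202% and 0.414% to 0.452%, respectively. The sum includes the Ass1 row, which held very few reads in every liver and was not read as a level of Ass1.

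**Figure D2:**
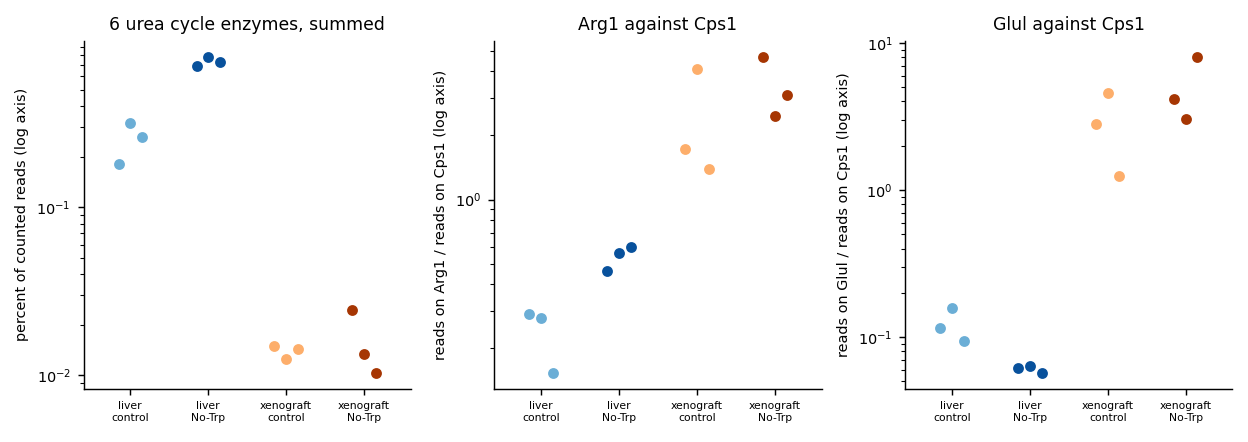
Percent of counted reads on the 6 urea cycle enzymes, reads on Arg1 per read on Cps1, and reads on Glul per read on Cps1 (log axes), 1 point per mouse. The Ass1 row adds few or no reads to the first panel. The liver diets separate in all 3 panels, and the xenografts hold 0.0104% to 0.0245% of reads on the enzymes with the 2 ratios above those of all livers.

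Genes that feed the cycle were followed through a list of carriers and cofactor enzymes. Of its 7 tested genes, 4 rose and none fell in the livers, with a median log2 fold change of 1.09. Slc25a15, which carries ornithine into the mitochondrion, measured 154 to 222 CPM in control and 529 to 616 CPM in No-Trp livers and rose most (1.65 ± 0.21, adjusted p = 0.0136). Slc25a13, the aspartate and glutamate carrier that supplies ASS1, rose by 1.09 ± 0.24 (adjusted p = 0.0242). Car5a, the mitochondrial carbonic anhydrase that makes bicarbonate for CPS1, had a log2 fold change of 2.39 ± 0.92 and did not pass (adjusted p = 0.0965). Its control livers ranged widely, with a mean of 8.10 ± 9.93 CPM (SD, n = 3).

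Branches that use arginine and ornithine did not move together. Of 12 tested genes 1 rose and 2 fell, with a median log2 fold change of -0.15. The gene that rose was Nos3, endothelial nitric oxide synthase (1.36 ± 0.30, adjusted p = 0.0254), and the largest fall was that of Srm, spermidine synthase (-1.40 ± 0.34, adjusted p = 0.0300). Odc1, which starts polyamine synthesis from ornithine, measured 425 ± 85.8 CPM (SD, n = 3) on the control diet and 216 ± 55.6 CPM on the No-Trp diet. Its log2 fold change of -0.97 ± 0.26 passed on the adjusted p alone (0.0376). Oat, which turns ornithine towards glutamate, likewise passed on the adjusted p alone, in the upward direction (0.90 ± 0.18, adjusted p = 0.0213). Arg2, the mitochondrial arginase, had means of 0.443 and 0.807 CPM in the control and No-Trp livers and did not pass (adjusted p = 0.349).

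Among genes that release or bind ammonia and glutamine nitrogen, 7 of 24 tested rose and 5 fell, with a median of 0.25. Enzymes that free ammonia or glutamate were among those that rose. Hal, histidine ammonia-lyase, had the largest rise (2.68 ± 0.36, adjusted p = 0.0138). Glud1, glutamate dehydrogenase, went from 772 ± 155 to 2137 ± 96.1 CPM (SD, n = 3) with a log2 fold change of 1.49 ± 0.25 (adjusted p = 0.0182). Gls2, the liver glutaminase, which frees ammonia from glutamine, rose by 1.03 ± 0.27 (adjusted p = 0.0361). Cad, which uses glutamine nitrogen to start pyrimidine synthesis, fell from 298 ± 80.4 to 105 ± 52.1 CPM (SD, n = 3; -1.50 ± 0.41, adjusted p = 0.0376). The largest fall was that of the channel gene Aqp8 (-1.98 ± 0.29, adjusted p = 0.0160). Asns, asparagine synthetase, was lower without overlap but did not pass (-1.08 ± 0.45, adjusted p = 0.116), and the ammonium transporter Rhbg did not pass (0.97 ± 0.70, adjusted p = 0.333).

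Of 10 tested regulators known to act on urea cycle genes, 5 rose and none fell in the same livers, with a median of 0.96. The largest rise was that of Cebpb, a C/EBP transcription factor (1.9 ± 0.27, adjusted p = 0.0142). The others were Ppargc1a, Gcgr (the glucagon receptor), Creb3l3 and Cebpa, at 1.54, 1.38, 1.05 and 1.04. Of 6 amino acid transporters of the hepatocyte surface, 2 rose and 1 fell. Slc38a3, a glutamine transporter, rose most (2.51 ± 0.59, adjusted p = 0.0278), and the cationic amino acid transporter Slc7a1 fell (-1.66 ± 0.49, adjusted p = 0.0467).

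The position of the members along the lobule was set beside markers of each zone. Of 8 tested periportal markers 4 rose (median log2 fold change 1.14), and of 12 tested pericentral markers 2 rose (median 1.13). No marker of either list fell past the thresholds, and 1 periportal marker had a negative log2 fold change (-0.82). Some genes of the lists above, including Hal, Gls2, Oat and Rhbg, are also among these markers, so the lists are not independent. Hal had the largest rise among the periportal markers that passed, and Cyp2c38 the largest among the pericentral ones (3.63 ± 0.43, adjusted p = 0.0127). The summed pericentral markers, the zone of Glul, ranged from 440 to 3532 CPM in the control livers, the highest being mouse 102, and from 3369 to 7750 CPM in the No-Trp livers. Cyp2e1 alone gave 154 to 2643 CPM of the sum in the control livers and 2619 to 6515 CPM in the No-Trp livers.

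**Figure D3:**
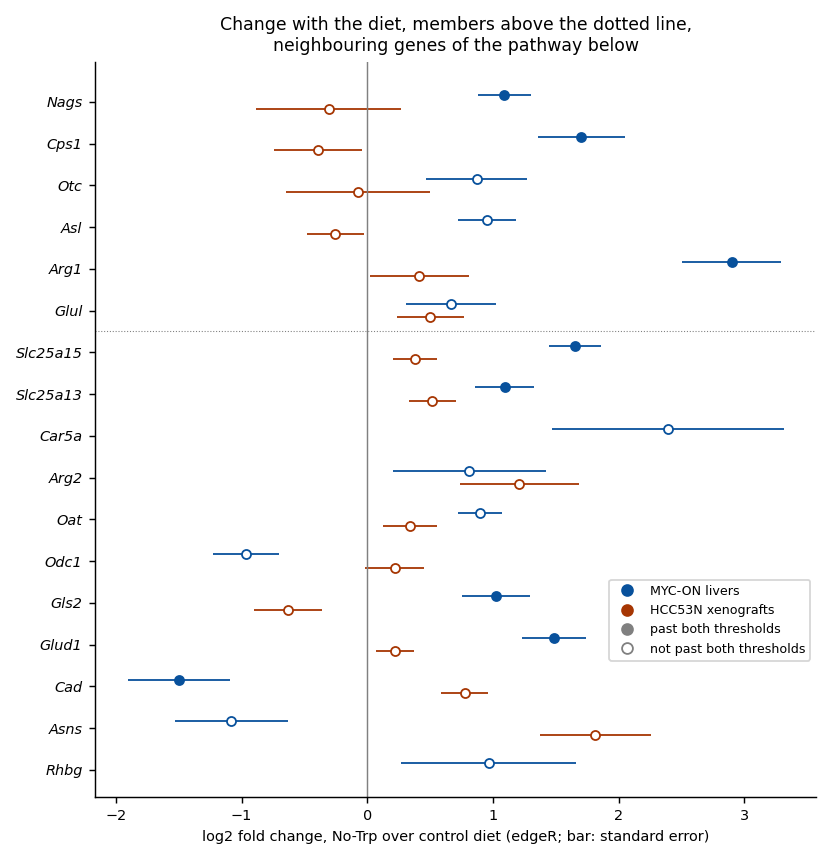
Log2 fold change of No-Trp over control diet with its standard error for 6 members and 11 neighbouring genes, in livers (blue) and xenografts (orange); filled points passed both thresholds. In livers Nags, Cps1 and Arg1 lie to the right and are filled, while no xenograft point is filled.

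In HCC53N xenografts the No-Trp diet left no member past the thresholds. With the control diet all 6 tested members were lower there than in the livers, from 2.91-fold for Glul to 106-fold for Otc. Only 0.36% of the 14704 genes tested passed in this comparison, 53 in all, and 2483 genes had an unadjusted p under 0.05, so a count of 0 among 6 members is not a result about the members. None of the 6 tested members had an unadjusted p under 0.05. DESeq2 called 380 genes and likewise none of the members. The median log2 fold change of the members was -0.16, and their adjusted p ran from 0.381 (Glul) to 0.968 (Otc).

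Arg1 measured 54.6, 70.4 and 54.9 CPM in the control xenografts of mice 40, 41 and 43, and 138, 59.8 and 44.7 CPM in the No-Trp xenografts of mice 35, 36 and 37. Mouse 35 was high and mouse 37 lay below all controls, and the log2 fold change was 0.42 ± 0.40 (adjusted p = 0.642). Cps1 measured 31.8, 17.2 and 39.3 CPM on the control diet and 29.4, 24.2 and 14.4 CPM on the No-Trp diet, with a log2 fold change of -0.39 ± 0.35 (adjusted p = 0.620). The ranges of both diets overlapped for both genes. Asl measured 50.2, 27.4 and 32.0 CPM and then 30.9, 30.8 and 30.9 CPM, a log2 fold change of -0.25 ± 0.23 (adjusted p = 0.612) in which control mouse 40 alone stood high.

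Glul measured 89.99, 78.9 and 49.3 CPM in the control xenografts of mice 40, 41 and 43, and 122, 73.3 and 116 CPM in the No-Trp xenografts of mice 35, 36 and 37. Its log2 fold change of 0.50 ± 0.27 did not pass (adjusted p = 0.381). Otc was near the detection limit, at 1.47, 0.758 and 1.95 CPM and then 2.14, 1.20 and 0.636 CPM. Nags, at 0.882, 0.598 and 0.305 CPM and then 0.689, 0.434 and 0.339 CPM, rested on 5 to 19 reads per library. Differences of the size of their standard errors, 0.57 and 0.58 on the log2 scale, were not detectable for these 2 genes at this depth.

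The neighbouring genes showed the same absence of calls in the xenografts. Of 9 tested, none passed. Asns had the largest difference, at 56.2 ± 8.96 CPM on the control diet and 199 ± 111 CPM on the No-Trp diet (SD, n = 3), with a log2 fold change of 1.82 ± 0.44 (adjusted p = 0.132). Cad had a log2 fold change of 0.77 ± 0.19 (adjusted p = 0.113). The values for Arg2, Slc25a13, Slc25a15, Oat, Glud1 and Odc1 were 1.21, 0.52, 0.38, 0.34, 0.22 and 0.22, that for Gls2 was -0.63, and Car5a and Rhbg were too low to be tested. Among the regulators Cebpb fell (-1.25 ± 0.16, adjusted p = 0.0235), and it was the 1 gene of the 10 that passed, while 0.116% of all genes fell. Adipocyte markers moved with the diet in these tumors, from 11.4 to 66.9 summed CPM in the controls to 351 to 739 CPM in the No-Trp xenografts. Macrophage markers, cells in which Arg1 can also be made, summed to 833 to 1167 CPM and 914 to 1439 CPM, with 0 of 14 passing. The part of these cells in the members' values was not tested. With the resubmission mark as a covariate, which sets control mouse 40 alone against the No-Trp xenografts, log2 fold changes of the members ran from -0.85 (Nags) to 0.56 (Arg1) and none passed.

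The difference between both diet responses was tested directly, as the interaction of diet and model over all 12 libraries. It passed for 3 of 6 members, all with the higher log2 fold change in the livers. Of all 15472 genes 12.7% passed, 6.01% in that direction and 6.69% in the other. The log2 fold change of Arg1 was lower in the xenografts by 2.45 ± 0.57 (adjusted p = 0.0187), that of Cps1 by 2.06 ± 0.49 (adjusted p = 0.0193) and that of Asl by 1.18 ± 0.32 (adjusted p = 0.0314). For Nags the difference of -1.38 ± 0.47 did not pass (adjusted p = 0.0652), nor did those of Otc (-0.87 ± 0.69, adjusted p = 0.416) and Glul (-0.13 ± 0.48, adjusted p = 0.882). Without control liver 103 the difference passed for Cps1 alone, and Asl also missed the threshold without 1 of several other libraries, with adjusted p up to 0.0820 over the fits that left out 1 library.

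Of the 11 neighbouring genes, 6 passed the interaction test. Slc25a15, Gls2 and Glud1 had a lower diet log2 fold change in the xenografts than in the livers (-1.24, -1.62 and -1.23). Gls2 was higher on the No-Trp diet in the livers (1.03) and lower in the xenografts (-0.63, not past the thresholds). Odc1, Cad and Asns responded in the upward direction relative to the livers (1.21, 2.30 and 2.92). Slc25a13, Car5a, Arg2, Oat and Rhbg did not pass (adjusted p from 0.224 to 0.964). Among the regulators 4 of 10 passed, all with the higher log2 fold change in the livers, and Cebpb differed most (-3.12 ± 0.32, adjusted p = 0.00165). Cebpb rose in the livers and fell in the xenografts.

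All 6 tested members were lower in the xenografts on either diet, while 20.2% of all genes passed downwards with the control diet and 19.1% without Trp. On the control diet Otc was lower by 106-fold, Nags by 80.3-fold and Cps1 by 57.2-fold, while Asl was lower by 8.42-fold, Arg1 by 6.65-fold and Glul by 2.91-fold. Otc, Nags and Cps1, whose products work in the mitochondrion, had the larger differences, and the order among members was not tested. The corresponding log2 differences were -6.73 ± 0.57 for Otc, -6.33 ± 0.35 for Nags, -5.84 ± 0.42 for Cps1, -3.07 ± 0.24 for Asl, -2.73 ± 0.42 for Arg1 and -1.54 ± 0.35 for Glul (adjusted p from 4.7e-08 to 0.00247). Every xenograft lay below every liver on the same diet for these 6 genes, as did 31.8% of all genes with the control diet and 29.5% without Trp.

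On the No-Trp diet the log2 differences were -7.90 ± 0.46 for Cps1, -7.70 ± 0.36 for Nags, -7.60 ± 0.59 for Otc, -5.18 ± 0.47 for Arg1, -4.25 ± 0.26 for Asl and -1.67 ± 0.35 for Glul (adjusted p at most 0.00144). The median of all genes was 0.15 in this comparison, so these values lie slightly closer to zero than they do relative to that median. All 14 hepatocyte markers were lower in the xenografts on both diets, with medians of -5.54 and -7.71. Their summed level was 647 to 2488 CPM in the xenografts, so these markers were read there at low levels. The neighbouring genes were also mostly lower, 8 of 11 with the control diet and 7 of 11 without Trp. Slc25a15, Slc25a13, Car5a, Gls2, Glud1 and Rhbg were lower on both diets (-3.35, -2.50, -5.18, -2.76, -1.86 and -3.93 with the control diet), Cad (-1.67) and Asns (-2.20) with the control diet and not without Trp, and Oat without Trp (-1.45). Arg2 and Odc1 did not pass both thresholds on either diet.

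Levels of different genes were compared per kilobase of merged exons. In the control livers Cps1 stood first at 303 ± 84.6 CPM per kilobase (SD, n = 3), followed by Arg1 at 179 ± 74.0, Glul at 63.8 ± 32.1, Asl at 63.7 ± 10.9, Otc at 34.1 ± 15.1 and Nags at 17.4 ± 4.84. The ranges of Cps1 and Arg1 overlapped, as did those of Glul, Asl and Otc in part. In the No-Trp livers Arg1 came first at 1317 ± 334 CPM per kilobase and Cps1 second at 973 ± 186, with overlapping ranges. In the control xenografts Arg1 (26.9 ± 4.06) and Glul (21.9 ± 6.32) led, before Asl (7.56 ± 2.50), Cps1 (5.29 ± 2.02), Otc (0.328 ± 0.141) and Nags (0.210 ± 0.102). The order depended on the length used. With coding length Arg1 stood above Cps1 in the control livers and Glul above Arg1 in the xenografts.

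Ass1 stood near 0 in every library. Its row held 3, 1 and 5 reads in the control livers of mice 101, 102 and 103, 1, 4 and 1 reads in the No-Trp livers of mice 105, 107 and 108, and 0 reads in all 6 xenografts. A count of 0 allows up to 3 reads, or 0.1 to 0.183 CPM in the xenografts. ASS1 is an abundant enzyme of liver, while the row stood far below its neighbours in the cycle, and it was too low to be tested in any of the 5 comparisons. The row was therefore not read as a level of Ass1. The mouse genome holds Gm5424, a processed pseudogene at chr10:62071123-62072362 that copies the coding part of Ass1, and its own row held 0 reads in all 12 libraries. Its 1240 bases align without gaps to bases 203 to 1442 of the 1696-base Ass1 transcript, whose coding part runs from 203 to 1438, with 6 substitutions and 99.5% identity. The longest identical run is 398 bases, and 39.0% of the 100-base windows of the transcript occur unchanged in the copy. The stretch from base 813 to base 902 is shown because it holds a single difference, in capitals.
Ass1: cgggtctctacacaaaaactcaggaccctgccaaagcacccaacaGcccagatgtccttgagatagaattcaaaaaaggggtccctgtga
Gm5424: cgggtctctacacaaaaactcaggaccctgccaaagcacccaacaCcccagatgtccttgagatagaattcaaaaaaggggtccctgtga

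**Figure D4:**
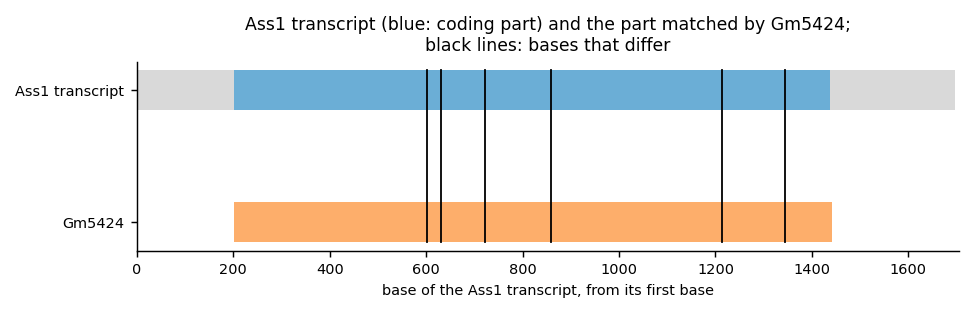
The Ass1 transcript (grey, coding part in blue) and the part matched by Gm5424 (orange), along bases of the transcript; black lines mark the 6 bases that differ. The differences lie between bases 601 and 1345, and the parts outside bases 203 to 1442 have no match in the copy.

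Reads that fit 2 places in a genome are commonly set aside in gene counting, and the rule used for these files is not given in the sources used here. Whether it accounts for the low Ass1 row was not tested. No window of Cps1, Otc, Asl or Arg1 occurs in another annotated gene. Of the Glul windows 2.75% do at 100 bases and 15.02% at 50 bases, mostly in the pseudogene Glns-ps1, so its counts are more open to this than those of the other enzymes named here.

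The genes most like each member were found by the correlation of log2 CPM over the 12 libraries after each model was centred on its own mean, among 11667 genes. The 12 points share their libraries and their scaling, and the values are a description. The diets were not centred, so genes that shift with the diet in the same direction correlate for that reason alone. The nearest to Arg1 was Creg1 (r = 0.99), that to Asl was Edem2 (0.99), that to Cps1 was Cyp2c39 (0.98), that to Nags was Acp5 (0.98), that to Otc was Plg, plasminogen (0.96), and that to Glul was Xdh, xanthine dehydrogenase (0.94). The next places went to Fam102a and Golga5 for Arg1, Gstm7 and Tmem205 for Asl, Fmo5 and Gnmt for Cps1, 2810459M11Rik and Vamp8 for Nags, Itih1 and Serpina11 for Otc, and Atp9a for Glul. Within the 6 livers, with both diets pooled, the members' correlations with each other ran from 0.77 (Otc and Arg1) to 0.98 (Nags and Arg1). These values include the difference between the liver diets and were not read as shared regulation. Within the 6 xenografts they ran from -0.49 (Cps1 and Glul) to 0.94 (Cps1 and Otc).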

How the data were processed

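RNA-seq of poly(A) RNA was measured in 12 mice. The authors deposited HTSeq read counts per gene symbol, not normalized, after trimming with Trim Galore and alignment to mm10 with STAR 2.7.2b; the strand setting and the rule for multiple alignments are not given in the sources used here. Rows for reads not assigned to a gene were left out, and 0 columns lacked a sample. Counts were tested with edgeR 4.0.16 in R 4.3.3 (TMM, filterByExpr, robust quasi-likelihood fit, two-sided), within each model for diet and over 12 libraries for the interaction and the models, with Benjamini-Hochberg adjustment over all genes tested. A standard error is the log2 fold change divided by the square root of F. No 2 mice of a group agreed within sampling noise (chi-square per degree of freedom 34.6 to 274). Intervals given by a count of 0 cover counting error only. Scripts were tested on simulated data. Tool versions follow the submitters' notes, and DESeq2 1.42.0 was an alternative. The text names the 7 members and 11 neighbouring genes in every comparison, the gene most changed in each direction among those passing in each list, and the 3 genes most like each member by correlation (mean of at least 100 counts), apart from 2 genes that are not reported here. Members and lists were chosen with earlier results of these data known. Other settings tried were RLE factors, library totals, DESeq2, other count filters, Rn45s left out, the resubmission mark, other sets of libraries in the fit, no fold threshold and leaving out each library. Sequences come from RefSeq (GRCm38.p6) and GENCODE M21 (GRCm38).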

Additional observations from a re-analysis of the deposited data

Results flagged for a closer look

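For 3 members the diet response differed between the models by the interaction test of edgeR. The diet effect in xenografts minus that in livers was -2.45 on the log2 scale for Arg1, -2.06 for Cps1 and -1.18 for Asl.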

How the results depend on the processing

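No paired analysis was possible because no 2 groups share mouse numbers. Leaving out 1 mouse at a time moved the number of members passing from 3 to between 0 and 6 in the liver diet comparison and to between 1 and 4 for the interaction, and it stayed at 6 for both comparisons of the models and at 0 for the xenograft diet. The other alternatives gave 2 to 4 members for the livers, 2 to 4 for the interaction and 5 to 7 for each comparison of the models. The 7th was Ass1 without a count filter. The count of 5 arose where at least 10 counts were required in every library, which left Nags untested. Over single members, 436 values kept their direction and side of the thresholds, 10 came to pass, 18 no longer passed and 12 changed sign. None of the sign changes was in a value that had passed. In the xenografts, leaving out 1 mouse gave -0.58 to 0.26 for Otc, -0.19 to 0.71 for Arg1, -0.62 to 0.067 for Nags and -0.43 to 0.042 for Asl, and library totals gave 0.053 for Otc. For the interaction Glul ran from -0.61 to 0.10 over single mice left out and was 0.28 with library totals. The cause was not tested. Library totals moved the median of all genes by -0.30 in the livers and 0.41 in the interaction; Nags in the livers (0.80) and Asl in the interaction (-0.79) then missed the thresholds. The number of all genes passing ranged from 8 to 3573 for the liver diet and from 4 to 380 for the xenograft diet.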
